A study of Mus musculus with 2 samples.

Results

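The interferon-high spots of 2 mouse cerebellar sections with transplanted breast tumors were studied, namely the spots in which the interferon-induced transcripts Ifit1 and Ifit3 took the largest share of all transcripts. Of the spots under tissue with at least 2000 unique molecular identifiers (UMIs, 1 per captured molecule), the top 4% of each section by Ifit1 plus Ifit3 CPM (UMIs of the gene per 1000000 UMIs of the spot) were taken. That gave 127 of 3164 spots in section 1 and 156 of 3902 in section 2, together 283 of the 7423 spots under tissue. Isg15, the other gene of the intended rule, was not analysed here. Both sections carried HP tumors, grown from organoids labelled HP-F1 and HP-B6 with Cre and injected into the cerebellum of untreated B6 mice. HP stands for an activated HER2 transgene, under an actin promoter and freed by Cre from a Lox-STOP-Lox element, together with an activated PIK3CA allele. The hosts were syngeneic, the labels give no age, and each section is 1 biological replicate of the same group. No uninjected cerebellum entered the comparison, so all contrasts run between spots of the same section. Each member was set against the other spots within 3 array steps of it, where 1 step is the distance between neighboring spots of the hexagonal array. There were 1202 such surrounding spots in section 1 and 1155 in section 2, and the 1835 and 2591 spots farther away are called remaining spots.

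Interferons are secreted proteins that cells release when they sense viral or misplaced nucleic acid. Type I interferons bind the receptor pair Ifnar1 and Ifnar2, whose kinases activate a transcription factor complex that includes Stat2 and Irf9 and binds interferon-stimulated response elements in the promoters of antiviral genes. Interferon gamma, the type II interferon of T and NK cells, acts through the receptors Ifngr1 and Ifngr2 on gamma-activated sites, and it drives guanylate-binding proteins and antigen presentation. In the brain, microglia, astrocytes, oligodendrocytes and invading myeloid cells can all respond.

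The promoters of the genes that chose the spots, and of 2 genes that went with them, are shown with their matches to a pattern of the response element. They come from RefSeq (GRCm38.p6), run from 250 bases before to 50 bases after the start site on the strand of the gene, and have each match to GAAANNGAAA, on either strand, in capitals. Ifit3 (chr19:34583279-34583578, + strand) and Ifit1 (chr19:34640639-34640938, + strand) hold 2 matches each. Rsad2 (chr12:26456403-26456702, - strand) holds 1, and Irf7 (chr7:141266375-141266674, - strand) holds none.
Ifit3: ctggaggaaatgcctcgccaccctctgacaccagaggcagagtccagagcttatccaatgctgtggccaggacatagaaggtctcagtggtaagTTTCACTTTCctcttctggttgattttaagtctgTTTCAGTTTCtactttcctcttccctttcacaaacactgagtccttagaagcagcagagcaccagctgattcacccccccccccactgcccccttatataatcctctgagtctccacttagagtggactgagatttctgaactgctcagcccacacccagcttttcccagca
Ifit1: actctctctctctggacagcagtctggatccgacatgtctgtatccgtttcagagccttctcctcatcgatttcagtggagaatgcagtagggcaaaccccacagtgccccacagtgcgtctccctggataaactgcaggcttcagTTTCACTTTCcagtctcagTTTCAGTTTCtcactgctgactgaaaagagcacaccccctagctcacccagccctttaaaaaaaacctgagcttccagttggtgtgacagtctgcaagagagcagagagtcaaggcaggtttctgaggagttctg
Rsad2: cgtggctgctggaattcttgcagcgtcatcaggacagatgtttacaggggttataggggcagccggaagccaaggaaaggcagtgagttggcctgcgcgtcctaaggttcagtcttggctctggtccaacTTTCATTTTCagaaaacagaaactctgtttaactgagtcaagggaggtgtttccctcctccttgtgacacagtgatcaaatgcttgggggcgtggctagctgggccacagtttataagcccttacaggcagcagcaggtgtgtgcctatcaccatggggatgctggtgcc
Irf7: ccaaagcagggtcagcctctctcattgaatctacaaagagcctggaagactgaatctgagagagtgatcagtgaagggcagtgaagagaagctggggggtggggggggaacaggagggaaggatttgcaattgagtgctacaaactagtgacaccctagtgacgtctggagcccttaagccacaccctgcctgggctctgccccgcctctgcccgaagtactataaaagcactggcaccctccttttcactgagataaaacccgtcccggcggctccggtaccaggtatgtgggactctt
A match was in 3.44% of the 32851 promoters of the table. Counted by gene, it was in 584 of the 14879 tested genes that had a promoter there (3.92%). It was in 28 of the 68 antiviral genes and 8 of the 9 interferon-induced GTPase genes that had a promoter there. Of the genes called higher in members below, 12 of the 32 with a promoter had a match. Only exact matches in these bases were sought, so a missing match does not show that a gene lacks the element.

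The sections held 63986887 and 71878333 UMIs, with medians of 9733.5 and 12390 per spot. Spots were divided into neural and neural-poor tissue by the summed level of 22 neural genes, and 3.48% and 4.46% of the spots lay within 0.5 log2 units of the threshold, so the class is a range rather than a cell type. In section 1 the largest connected neural-poor body (753 spots) was collagen-rich, with fibroblast markers at 57366 CPM and epithelial markers at 133 CPM. In section 2 the largest body (760 spots) was epithelial, with fibroblast markers at 805 CPM and epithelial markers at 10810 CPM. The epithelial markers that should define a breast tumor were therefore nearly absent from the neural-poor body of section 1, and neural-poor tissue means different tissue in the 2 sections. The 123 other neural-poor spots of section 2 were rich in choroid plexus transcripts (42478 CPM). The sections share 3096 spot codes, which are array positions, and 5 positions were interferon-high in both.

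The rule rested on few molecules in many spots. Members held 1 to 74 Ifit1 and Ifit3 UMIs in section 1 (median 6) and 2 to 118 in section 2 (median 11). In section 1, 24 members held at most 2 such UMIs, against 6 in section 2. Ifit1 plus Ifit3 ranged in members from 362.3 to 1515 CPM (median 465) in section 1 and from 623 to 3526 CPM (median 854) in section 2. The next spots outside lay at 362.1 and 622.3 CPM, so members and non-members met without a gap. The median over all spots of at least 2000 UMIs was 0 CPM in section 1 and 43.1 CPM in section 2.

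Interferon-high spots lay in both kinds of tissue, in different proportions in the 2 sections. In section 1, 51 of 127 members (40.2%, Wilson 95% interval 32.0 to 48.9%) were neural-poor, against 23.8% of all spots of that section. In section 2, 16 of 156 (10.3%, 6.41 to 16.0%) were neural-poor, against 22.6% of all spots. These intervals cover counting error only and treat touching spots as independent. With a tissue threshold 1 log2 unit higher, the shares were 41.7% of members against 26.5% of all spots in section 1 and 24.4% against 27.6% in section 2. With a threshold 1 log2 unit lower, the shares were 37.8% against 20.5% and 8.97% against 18.5%. Without a majority vote of neighboring spots on the tissue class, they were 39.4% against 23.4% and 11.5% against 22.3%. The larger share in section 1 was thus seen in all these settings, but 26 of its 51 neural-poor members formed 1 patch of touching spots. The smaller share in section 2 was mostly lost at the higher threshold only.

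**Figure D1:**
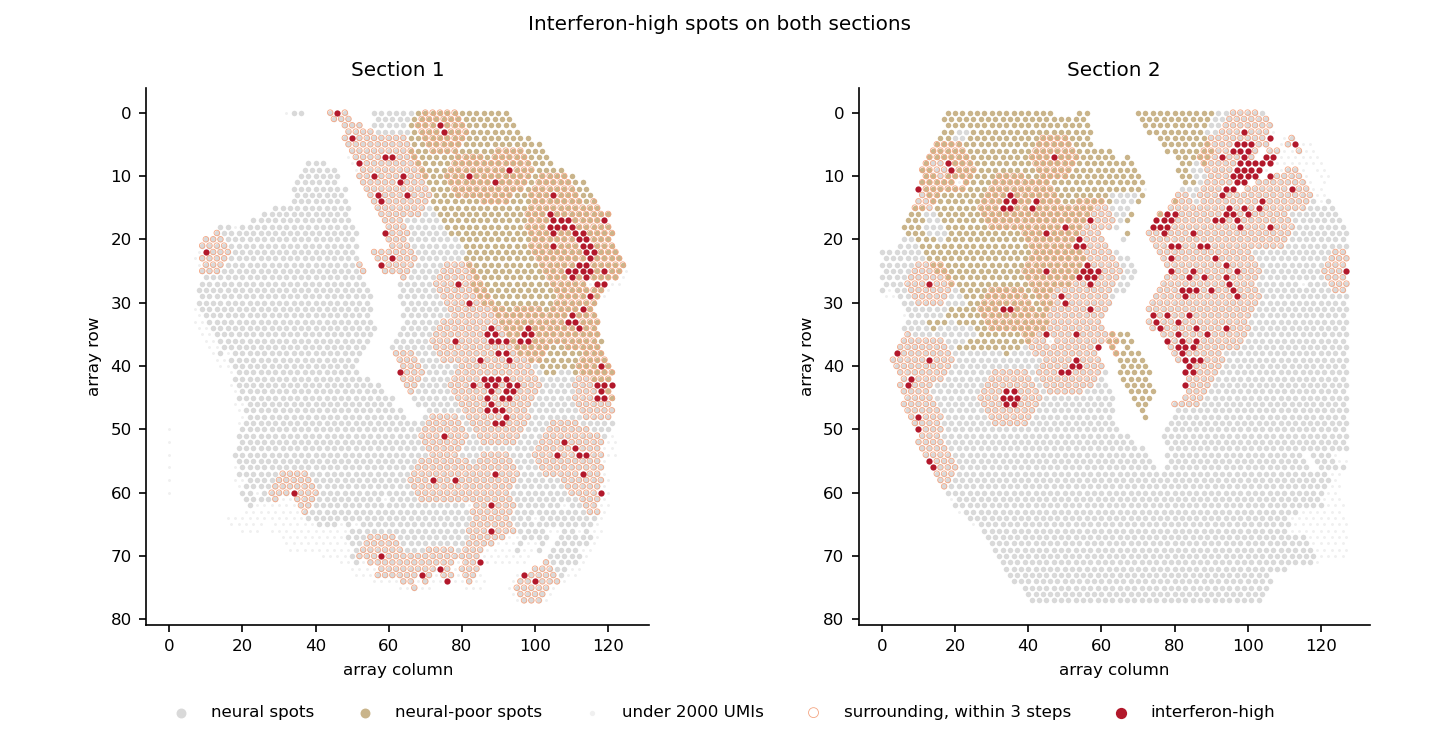
Positions of all spots on the array (rows and columns of the hexagonal grid) in both sections, with interferon-high spots in red, surrounding spots ringed in orange and neural-poor tissue in tan. The 127 red spots of section 1 include a band of 26 in the neural-poor body, and 140 of the 156 red spots of section 2 lie in neural tissue.

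The neural members lay nearer to the largest neural-poor body than neural spots did as a whole. Their median distance to it was 8 steps in section 1, against 21 steps for all neural spots, and 14 steps in section 2, against 23. Within 3 steps lay 22.4% of the 76 neural members of section 1, against 7.51% of all its neural spots, and 11.4% of the 140 of section 2, against 8.08%. The spread was wide all the same, since 16 and 57 neural members were more than 15 steps away. Inside the body of section 1, members had a median of 14 steps from neural tissue, against 8 for all its spots. Of these 51 members, 26 formed 1 patch at a median of 16 steps. The 16 neural-poor members of section 2 showed a median of 7.5 steps against 5, and 5 of these members formed 1 patch at a median of 11 steps. Both medians thus rest in good part on 1 patch per section.

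Members tended to touch each other. Of the neighbors of a member, 29.5% in section 1 and 33.7% in section 2 were themselves members, whereas members were 4.01% and 4.00% of all spots. Touching members formed 56 patches in section 1, the largest of 26 spots, and 62 in section 2, the largest of 27. Patches of 3 or more spots held 74 members in section 1 and 95 in section 2, and 43 and 39 members stood alone. Members that stood alone had fewer UMIs in section 1, with a median of 5487, than members of patches of 3 or more, with a median of 24013. In neural tissue of section 1 these medians were 4930 and 9870, and in neural-poor tissue 36706 and 46283. Section 2 showed no such gap, with medians of 11397 and 10998.

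The 13 patches of 5 or more members lay in very different tissue. By the tissue class, all spots were neural in 9 of these, all were neural-poor in 3, and 1 was mixed. The neural class also took in spots with markers of the neural-poor bodies. Patch 4 of section 1 (6 spots, all classed as neural) had neural markers at 8243 CPM and fibroblast markers at 17642 CPM. Over all neural spots of section 1 these stood at 22523 and 3248 CPM. The largest patch of section 1 (26 spots) lay within the collagen-rich body, a median of 16 steps from neural tissue, and had fibroblast markers at 54069 CPM and B and plasma cell markers at 5671 CPM. Its Igkc, an immunoglobulin light chain, stood at 3312 CPM, against at most 43.8 CPM in the 12 other patches. The next patch of section 1 (21 spots) was in oligodendrocyte-rich neural tissue, with oligodendrocyte markers at 22493.5 CPM and the myelin gene Mbp at 9219.9 CPM. A mixed patch of 6 spots was rich in Gfap, the astrocyte intermediate filament, at 10859 CPM.

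In section 2 the largest patch (27 spots) lay a median of 16 steps from the largest neural-poor body and was the patch highest in Purkinje cell markers, at 2831 CPM. Patch 2 (13 spots), 22 steps away, was astrocyte-rich, with Gfap at 14749.9 CPM. Patches of 9 and 8 spots lay a median of 5 and 2 steps from the epithelial body. They combined macrophage markers at 22010.2 and 27798 CPM with Arg1, an arginase of tumor-associated macrophages, at 2191 and 1165 CPM. Both were classed as neural, yet had neural markers at 4606 and 5430 CPM and epithelial markers at 3387 and 5925 CPM. Over all neural spots of section 2 these stood at 19930 and 846 CPM. A patch of 5 spots inside the epithelial body had epithelial markers at 10822 CPM, macrophage markers at 1587 CPM, and the highest antiviral sum of the 13 patches, 22382 CPM. High Ifit1 and Ifit3 thus occurred in oligodendrocyte-rich, astrocyte-rich and macrophage-rich patches of both sections, in a plasma cell-rich patch of section 1 and in an epithelial patch of section 2.

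**Figure D2:**
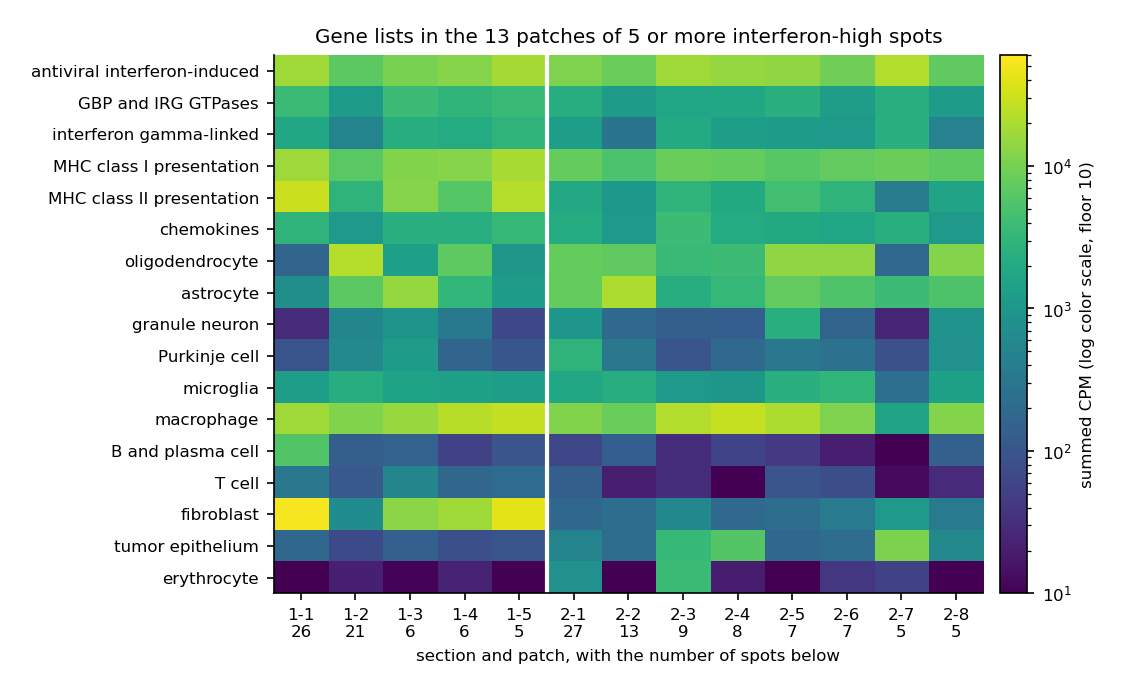
Summed CPM (log color scale with a floor of 10) of 17 gene lists in the 13 patches of 5 or more interferon-high spots, each column giving the section, the patch and its number of spots. The antiviral row is bright throughout, from 6803 CPM in patch 2 of section 1 to 22382 CPM in patch 7 of section 2, while the oligodendrocyte, fibroblast and epithelial rows differ by patch.

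The antiviral program was measured apart from the rule by 83 interferon-induced genes other than Ifit1 and Ifit3. Their summed level was 14209 CPM in members, 9378 CPM in surrounding spots and 6634 CPM in remaining spots of section 1. In section 2 it was 13120, 7332 and 4686 CPM. The order members, surrounding, remaining was the same in both sections. Single spots overlapped widely: 37 of 127 members of section 1 and 26 of 156 of section 2 fell below the median of the surrounding spots. Of the 13 large patches, 11 exceeded the pooled surrounding spots of their section, the exceptions being the oligodendrocyte-rich patch of section 1 (6803 CPM) and the 5-spot patch 8 of section 2 (7168 CPM). Both are neural and exceeded the neural surrounding spots, at 5074 and 5673 CPM. In neural tissue of section 1, members that stood alone did not exceed the pooled neural spots surrounding any member, at 4983 against 5074 CPM. These lone members held a median of 2 rule UMIs. In section 2 the same comparison gave 7325 against 5673 CPM. The spots around lone members were not summed apart, so whether lone members exceeded their own neighbors was not tested.

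The antiviral sum fell with distance from the nearest member. In section 1 it was 14209 CPM in members, 10496 at 1 step, 9159 at 2, 8662 at 3 and 1466 CPM beyond 8 steps. In section 2 it was 13120 CPM in members, 8638 at 1 step, 6936 at 2, 6565 at 3 and 2224 CPM beyond 8 steps. The drop over the first 3 steps was present within each tissue. In neural spots the sum went from 7817 to 4112 CPM in section 1 and from 10952 to 4518 CPM in section 2. In neural-poor spots it went from 16289 to 10367 CPM and from 19849 to 7689 CPM. In neural-poor tissue it then stayed level, at 9976 to 10559 CPM from step 4 to step 8 in section 1 and at 7006 to 7456 CPM in section 2. In neural tissue it was lower still farther out, at 1320 and 1611 CPM beyond 8 steps. Neural-poor tissue therefore had a higher antiviral sum than neural tissue at every distance, members included. Bulk spots cannot tell more responding cells from more RNA per cell.

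**Figure D3:**
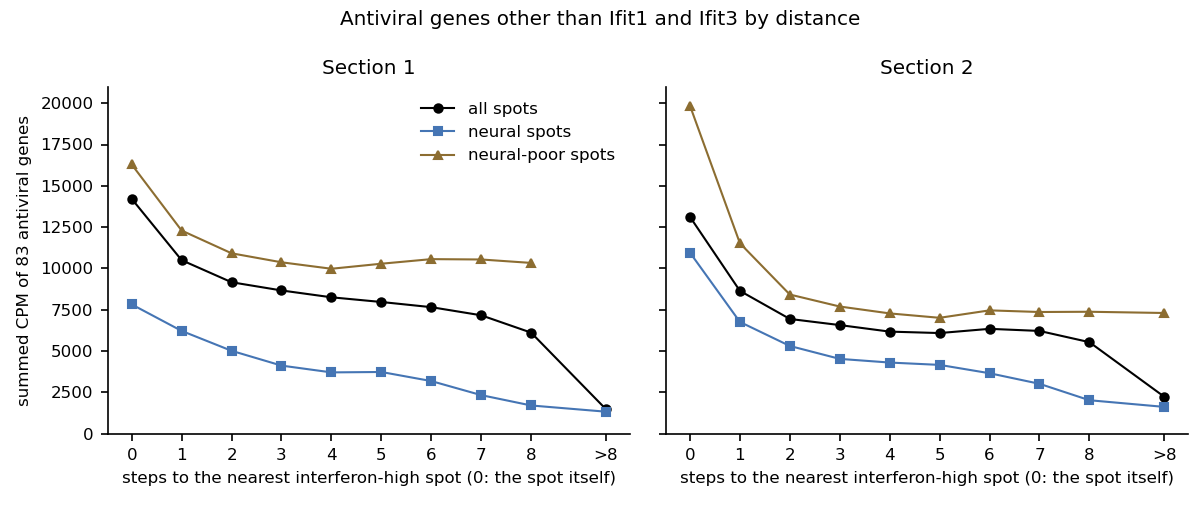
Summed CPM of the 83 antiviral genes (linear axis from 0) against the number of steps to the nearest interferon-high spot, for all, neural and neural-poor spots of each section. All lines fall over the first 3 steps, and the neural line ends at 1320 and 1611 CPM beyond 8 steps.

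For the comparison of single genes, UMIs were summed over members, surrounding and remaining spots of each section, and the levels below are CPM with TMM scaling. Ifit1, which binds foreign RNA that lacks host cap marks, stood at 196 CPM in members and 41.8 CPM in surrounding spots of section 1, and at 462 and 81.6 CPM in section 2. Ifit3, its partner protein, stood at 359 and 80.5 CPM in section 1 and at 578 and 93.2 CPM in section 2. These genes chose the spots, so their ratios are a description. When spots were chosen by Ifit1 alone, Ifit3 was 264 against 81.9 CPM in section 1 and 426 against 91.3 CPM in section 2, a log2 fold change of 1.99 ± 0.19 (SE, adjusted p = 3.8e-20). When they were chosen by Ifit3 alone, Ifit1 was 158 against 47.2 CPM and 347 against 85.2 CPM, a log2 fold change of 1.90 ± 0.22 that did not pass (adjusted p = 0.12). The 2 changes were of like size. The fits differed in their prior degrees of freedom, the weight given to the spread shared over genes, which were infinite for Ifit1 alone and 7.0 for Ifit3 alone. The 2 p-values are therefore not a measure of a difference between the genes. An infinite weight puts the shared spread in place of a gene's own. The small adjusted p of Ifit3 is thus no measure of how well the 2 sections agreed on it.

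Over all genes, 42 of 19234 were called higher in members than in surrounding spots (0.218%) and 7 lower (0.0364%), at an adjusted p below 0.05 in edgeR. Level differences between the sections were removed first. A gene was called where its difference was large against the remaining spread. That spread is how far the differences among the 3 spot groups disagreed between the 2 sections, drawn toward a value shared over genes. Of all genes, 4.14% had an unadjusted p below 0.05. The 42 had log2 fold changes from 0.78 to 1.92, with standard errors from 0.18 to 0.32, and 32 of them were in the interferon and antigen presentation lists. This count is fragile, since it was 40 with DESeq2 (32 shared), 6 with other scaling factors and 0 with library size alone, although all 42 stayed higher in members in both sections under those settings. In neural tissue alone 39 of the 42 did so, in neural-poor tissue alone 40, and in patches of 3 or more members 41. Without a test, 20 genes (0.104%) at least doubled in both sections, 14 of them in those lists, and this count was 4 with spots thinned to 2000 UMIs, 8 against spots within 1 step and 44 with a pseudocount of 0.1 CPM. The other 6 were Hba-a2, Hbb-bs, Ddx60, Ifi206, Trim30c and Spata9, the last chosen for naming after its values were seen.

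**Figure D4:**
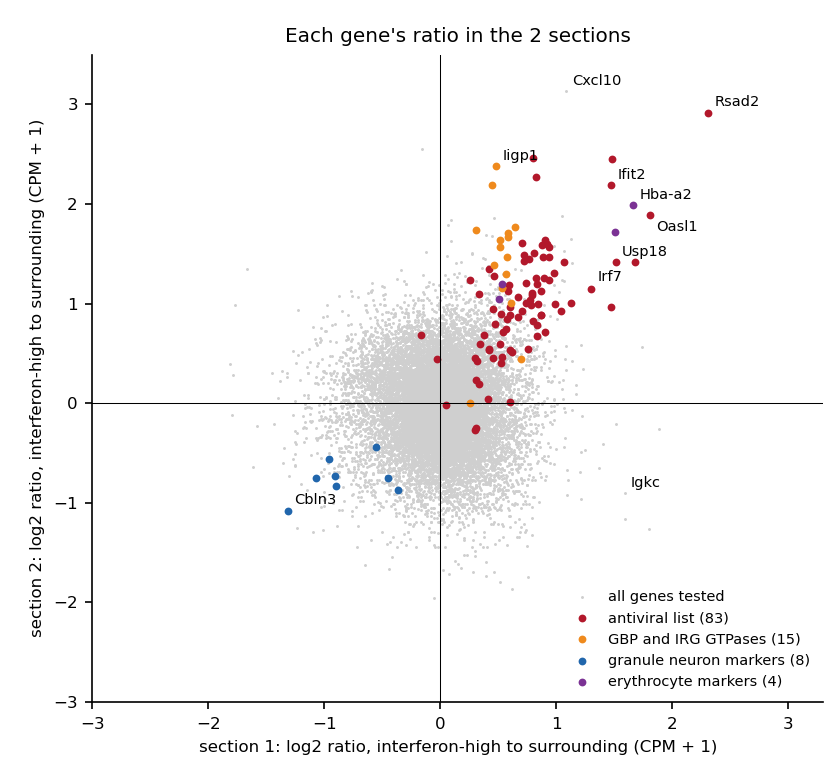
Log2 ratio of interferon-high to surrounding spots (CPM + 1) in section 1 against section 2, 1 point per gene tested, with 4 gene lists in color. The antiviral genes sit in the upper right, 78 of 83 above 0 in both sections, while over all genes the ratios of the sections were nearly uncorrelated (Pearson r = 0.0113 across genes, which are not independent replicates).

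Antiviral genes made up most of the calls. Of the 83, 26 were called higher (31.3%) and none lower. Over all genes tested 0.218% were called higher, which is also the share to set beside the counts of called genes in the lists below. Of the antiviral genes, 78 were higher in both sections (21.5% of all genes tested were). Their median log2 fold change was 0.89 (0.74 in section 1 and 0.99 in section 2), beside -0.02 over all genes. Rsad2, the enzyme viperin that makes a chain-terminating nucleotide, had the highest fitted change. It stood at 133 CPM in members and 26.0 CPM in surrounding spots of section 1 and at 515 and 67.4 CPM in section 2, a log2 fold change of 2.70 ± 0.58. Its members exceeded the surroundings 4.96-fold and 7.55-fold, and it was not called (adjusted p = 0.9997). Cmpk2, a mitochondrial nucleotide kinase next to Rsad2, behaved alike, with 63.4 against 22.1 CPM and 215 against 38.6 CPM. Ifit2, which binds viral RNA, had 163 against 58.1 CPM and 269 against 58.2 CPM, and neither of these 2 genes was called.

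Other antiviral genes were called. Oasl1, an oligoadenylate synthetase-like protein that restrains Irf7 translation, had 81.4 against 22.5 CPM in section 1, with counting intervals of 71.6 to 92.2 and 20.9 to 24.3 CPM. In section 2 it had 185 against 49.0 CPM, and its log2 fold change was 1.89 ± 0.19 (adjusted p = 2.6e-08). Ifi44 had 126 against 38.8 CPM and 172 against 64.0 CPM (log2 fold change 1.56 ± 0.18, adjusted p = 1.9e-07). The other called antiviral genes included the oligoadenylate synthetases Oas1a, Oas1g, Oas2, Oas3 and Oasl2, the double-stranded RNA kinase Eif2ak2, the ISG15 ligase Herc6 and the exonuclease Isg20. Gm4951 differed most between sections among the leading genes, with 160 against 89.9 CPM in section 1 and 80.2 against 15.8 CPM in section 2, and was not called. Mx1 and Mx2 were not analysed here.

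**Figure D5:**
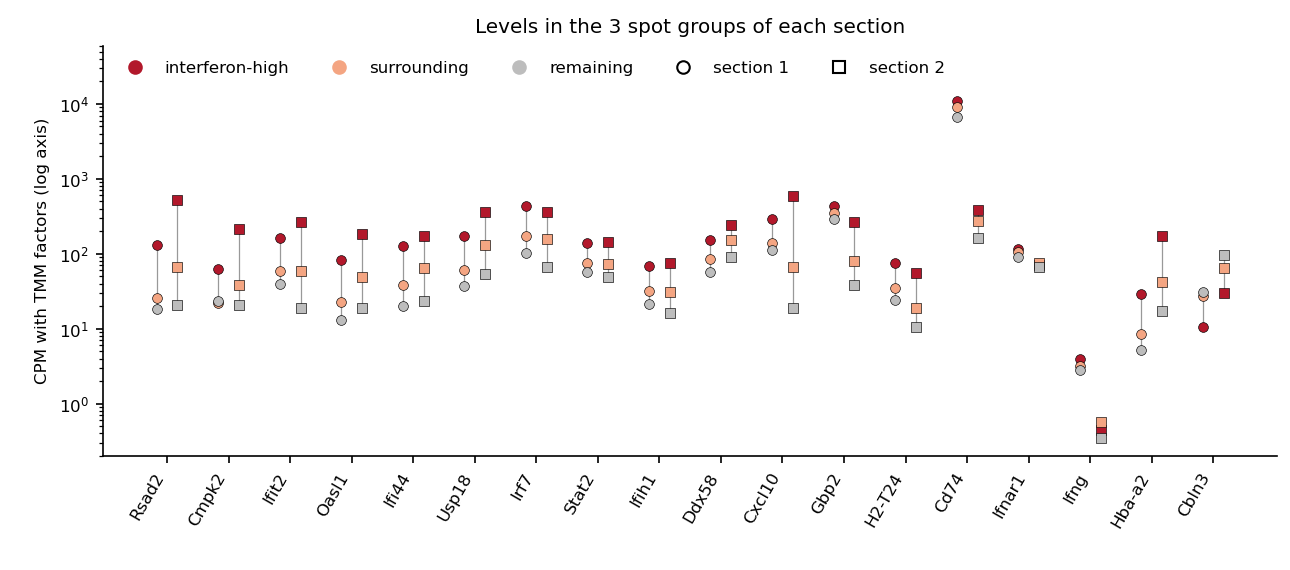
Levels (CPM with TMM factors, log axis) of 18 genes in interferon-high, surrounding and remaining spots, circles for section 1 and squares for section 2. From Rsad2 to H2-T24 the red symbols lie above the orange ones in both sections, for Ifnar1 and Ifng they lie close together, and for Cbln3 they lie below.

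The interferon genes themselves were scarce, and their sums were alike in members and surrounding spots. The 17 ligand genes summed to 55.9 CPM in members and 55.7 CPM in surrounding spots of section 1 and to 33.3 and 35.4 CPM in section 2. Their median log2 fold change was 0.02 and none was called. Ifnz, a type I interferon gene cluster member and the most abundant of them, had 25.6 against 20.2 CPM in section 1 and 14.5 against 18.8 CPM in section 2. Ifng, interferon gamma, rested on 12 UMIs in members of section 1 (3.94 CPM, counting interval 2.04 to 6.88) and on 1 UMI in section 2 (0.44 CPM, 0.01 to 2.44), against 3.21 and 0.57 CPM in surrounding spots. A difference in these genes was not detectable at this depth. Ifnb1 was not analysed here.

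The receptor genes had like levels in members and surroundings. Ifnar1 had 116 against 105 CPM in section 1 and 71.4 against 76.5 CPM in section 2, and Ifnar2 had 150 against 138 CPM and 99.5 against 81.5 CPM. Of the 13 receptor, kinase and STAT genes only Stat2 was called, at 139 against 74.7 CPM and 143 against 72.1 CPM (log2 fold change 0.94 ± 0.18, adjusted p = 0.0035). Irf9 had 112 against 79.1 CPM and 165 against 125 CPM (0.45 ± 0.18) and was not called. The transcripts of the receptors that start the pathway thus did not differ by a called amount, while 1 of the factors that carry it did.

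Among the 12 IRF genes, Irf7 alone was called. Irf7 is the interferon-induced factor that amplifies type I interferon production. It had 429 against 173 CPM in section 1 and 359 against 159 CPM in section 2 (log2 fold change 1.24 ± 0.19, adjusted p = 1.8e-04). Irf1, which interferon gamma induces strongly, had 223 against 201 CPM and 123 against 99.3 CPM (0.23 ± 0.19). Irf3, which is activated by phosphorylation rather than by induction, had 72.9 against 70.6 CPM and 81.9 against 104 CPM.

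Of the 21 nucleic acid sensor and adaptor genes, Ifih1 and Dhx58 were called. Ifih1 (MDA5), a cytosolic RNA sensor, had 68.0 against 32.0 CPM in section 1 and 74.5 against 31.3 CPM in section 2 (log2 fold change 1.17 ± 0.19, adjusted p = 2.7e-04). Dhx58 (LGP2), a regulator of those sensors, had 63.7 against 30.3 CPM and 62.2 against 25.9 CPM (1.17 ± 0.20, adjusted p = 0.0010). Ddx58 (RIG-I) had 153 against 84.1 CPM and 245 against 155 CPM and missed the threshold (0.76 ± 0.18, adjusted p = 0.052). Cgas, the DNA sensor, had 27.3 against 18.5 CPM and 18.8 against 13 CPM, and the adaptors Mavs and Tmem173 (STING) had log2 fold changes of -0.10 and 0.14.

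Of the 9 feedback genes, only Usp18, which removes ISG15 from proteins and blocks the type I receptor, was called. It had 173 against 59.9 CPM in section 1 and 356 against 133 CPM in section 2 (log2 fold change 1.47 ± 0.19, adjusted p = 3.3e-06). Socs1 had 71.6 against 53.4 CPM and 41.2 against 19.6 CPM (0.73 ± 0.21, adjusted p = 0.39), and Socs3 96.9 against 103 CPM and 273 against 211 CPM. The median of the list was 0.03.

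Genes tied more closely to interferon gamma were mostly higher in members, but by unlike amounts in the 2 sections. The 15 interferon-induced GTPases (guanylate-binding proteins and immunity-related GTPases, which attack pathogen vacuoles) had a median log2 fold change of 1.08. Of these GTPases, 14 of 15 were higher in both sections, against 21.5% of all genes tested. None was called, and the median was 0.53 in section 1 and 1.57 in section 2. Iigp1 had 471 against 337 CPM in section 1 and 164 against 30.8 CPM in section 2, and Gbp2 436 against 352 CPM and 269 against 80.0 CPM. The surrounding spots of section 1 were at 2372 CPM of GTPase transcripts, against 580 CPM in section 2. The level in members was 3268 and 1754 CPM.

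Among 15 interferon gamma-linked genes, 14 were higher in both sections, against 21.5% of all genes tested. The median log2 fold change was 0.52 (0.24 in section 1 and 1.05 in section 2), and 1 gene was called. That was Nos2, the inducible nitric oxide synthase, with 17.1 against 9.94 CPM in section 1 and 74.5 against 35.5 CPM in section 2 (0.95 ± 0.21, adjusted p = 0.019). Without the 5 richest members it was 12.2 CPM in section 1, where the surrounding spots had 10.6 CPM, and 47 CPM in section 2, where they had 33.4 CPM (CPM without TMM factors). No surrounding spot was left out, so this lowers the members' side alone. Cd274, the checkpoint ligand PD-L1, had 73.9 against 53.9 CPM and 104 against 31.7 CPM. Cxcl10, a chemokine that draws CXCR3-bearing T cells, had the largest change of all chemokines, with 296 against 139 CPM in section 1 and 585 against 65.6 CPM in section 2. Its ratios were 2.11 and 8.80, and it was not called (2.40 ± 1.24). None of 27 chemokines was called, and Ccl12 came nearest, with 148 against 90.7 CPM and 239 against 94.2 CPM (1.05 ± 0.24, adjusted p = 0.21).

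Of 26 MHC class I pathway genes, 20 were higher in both sections, against 21.5% of all genes, and 1 was called, the nonclassical H2-T24, at 75.2 against 35.3 CPM and 55.6 against 18.7 CPM (1.33 ± 0.20, adjusted p = 1.1e-04). Nlrc5, the transactivator of class I genes, had 124 against 92.7 CPM and 68.8 against 27.6 CPM, and Tap1, which loads peptides, 267 against 224 CPM and 145 against 60.9 CPM. No gene of the 12 in the MHC class II list was called. Cd74, the class II invariant chain, had 10778 against 9213 CPM in section 1 and 380 against 273 CPM in section 2. Class II transcripts thus differed far more between sections than between members and surroundings.

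Outside these lists, 10 genes were called higher. Several are known interferon-induced genes: Ddx60, a helicase cofactor of RIG-I, had 78.8 against 35.3 CPM and 119 against 44.0 CPM (1.31 ± 0.19, adjusted p = 2.2e-04). Tnfsf10 (TRAIL), a death ligand, had 26.9 against 16.9 CPM and 27.2 against 10.1 CPM, and Cd69, an early activation marker of lymphocytes, 22 against 11.2 CPM and 14.5 against 4.01 CPM. Slc28a2 and Plekha4 rose by log2 fold changes of 1.13 and 1.02. Ifi208, Trim30c and the immunoglobulin segment Ighj1 were called too, and their levels in 1 section were under 10 CPM. Ighj1 had 246 against 122 CPM in section 1 and 7.45 against 3.70 CPM in section 2.

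Hemoglobin transcripts were among the strongest calls, but a few spots carried them. Hba-a2 had 28.9 against 8.43 CPM in section 1 and 170 against 42.3 CPM in section 2 (1.92 ± 0.20, adjusted p = 1.2e-07), and Hbb-bs 30.9 against 10.2 CPM and 162 against 48.5 CPM (1.68 ± 0.19). The 5 richest members held 86.4% of the Hba-a2 UMIs of section 1 and 55.5% of those of section 2, and 16 and 42 members held any. Without the 5 richest members Hba-a2 was 4.13 CPM in section 1, below the 8.96 CPM of the surrounding spots, and 76.2 CPM in section 2, above their 39.8 CPM (CPM without TMM factors). Only members were left out, which lowers their side alone. The richest surrounding spots, with 26 and 39 Hba-a2 UMIs, were kept. The patches of 27 and 9 spots of section 2 had Hba-a2 at 389.9 and 1828 CPM. In neural-poor spots alone the fitted log2 fold changes were -1.19 for Hba-a2 and -1.41 for Hbb-bs, and these rest on section 2, where the log2 ratios were -1.75 and -1.97. In section 1 they were 0.17 and -0.09, at levels of 2.40 to 3.07 CPM. For contrast, the 5 richest members held 25% and 31.3% of the Oasl1 UMIs.

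The 7 genes called lower are all expressed in neurons, 3 of them in the granule neuron list. Granule neurons are the small excitatory cells of the cerebellar granular layer. Cbln3, a synapse organizer of granule neurons, had 10.5 against 27.6 CPM in section 1 and 29.8 against 64.1 CPM in section 2 (-1.24 ± 0.21, adjusted p = 6.0e-04). Neurod1, a neuronal transcription factor, had 25.9 against 49.2 CPM and 61.8 against 111 CPM (-0.89 ± 0.20, adjusted p = 0.021), and the cadherin Fat2 11.5 against 25.3 CPM and 54.8 against 92.9 CPM. Gabrd, a subunit of extrasynaptic GABA receptors, Grm4, a glutamate receptor, Rnf112 and Diras2 were the other genes called. All 8 granule neuron markers tested were lower in both sections, with a median of -0.81, and 5104 of all 19234 genes tested were lower in both. The share of neural-poor spots was 40.2% in members against 33.0% in surrounding spots of section 1 and 10.3% against 27.9% in section 2, and its part in these differences was not tested. Within neural spots each of the 7 genes was lower in members of both sections. The median log2 ratio of the granule neuron markers was -0.62 and -1.20 in neural spots and -0.56 and -1.06 in neural-poor spots.

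Markers of other cell types were described in the same way, and only the erythrocyte, granule neuron and neural lists contained calls. The 2 calls of the neural list, Cbln3 and Neurod1, are among those of the granule neuron list. Macrophage markers summed to 16943 against 16440 CPM in section 1 and 12831 against 10460 CPM in section 2, with Spp1, a secreted matrix protein, at 5209 against 4335 CPM and 4177 against 3293 CPM. Within neural spots the macrophage sums were 14284.5 against 12855 CPM and 15427 against 14935 CPM. Within neural-poor spots they were 17807.5 against 17889 CPM and 4775 against 6415 CPM. Microglia markers summed to 1375 against 1294 CPM and 1280 against 897 CPM, and 9 of 10 were higher in both sections, against 21.5% of all genes tested. In neural-poor tissue, however, the median log2 ratio of the microglia markers was -0.05 in section 1 and -0.36 in section 2. Plasmacytoid dendritic cells, which make much type I interferon, had a list sum of 1552 against 1132 CPM and 1160 against 789 CPM. Most of that was Bst2, at 974 against 547 CPM and 699 against 405 CPM, which is itself interferon-induced and also a member of the antiviral list (adjusted p = 0.075). B and plasma cell markers were 2734 against 1002 CPM in section 1 but 63.1 against 75.9 CPM in section 2. T cell markers stood at 311 against 306 CPM and 50.3 against 29.4 CPM, and NK cell markers at 85.2 against 65.9 CPM and 14.5 against 8.89 CPM. Neutrophil markers stood at 79.2 against 78.8 CPM and 112 against 80.3 CPM. The part of any cell type in the antiviral levels was not tested.

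IL34, a ligand of the macrophage receptor Csf1r, was the subject of the study. Il34 had 52.2 against 51.6 CPM in section 1 and 39.9 against 47.8 CPM in section 2, Csf1r 383 against 339 CPM and 277 against 203 CPM, and Arg1 130 against 159 CPM and 412 against 386 CPM. None of the 13 genes of the IL34 axis list was called, and its median log2 fold change was 0.23. Arg1 and Csf1r went in opposite directions by tissue in both sections. Arg1 had 334 against 287 CPM and 422 against 318 CPM in neural spots. Its neural-poor levels were 60.9 against 115 CPM and 272 against 474 CPM. Csf1r had 230 against 174 CPM and 319 against 266 CPM in neural spots. Its neural-poor levels were 464 against 474 CPM and 71.3 against 132 CPM. Il6, an inflammatory cytokine, had 3.28 against 3.01 CPM and 16.7 against 4.72 CPM.

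Within each tissue the median antiviral gene was higher in members in both sections. In neural tissue their median log2 ratio was 0.69 in section 1 and 1.11 in section 2, and in neural-poor tissue 0.56 and 1.05. Rsad2 in neural tissue had 144 against 32.1 CPM and 373 against 48.8 CPM, and in neural-poor tissue 136 against 26.5 CPM and 828 against 90.7 CPM. Usp18 rose from 41.5 to 109 CPM and from 81.7 to 260 CPM in neural tissue and from 78.2 to 207 CPM and from 196 to 562 CPM in neural-poor tissue. Gbp2 differed by tissue and section, at 182 against 87.6 CPM in neural spots of section 1 but 558 against 541 CPM in its neural-poor spots, where the GTPases were high everywhere. In section 2 it was 183 against 64.2 CPM and 469 against 100.2 CPM. A fit of all 8 sums called 0 of 17888 genes in neural tissue, 0 in neural-poor tissue and 0 for a difference between them (edgeR, with 283 genes or 1.58% at an unadjusted p below 0.05 for the difference), so it says nothing of whether the tissues differ. The fit of 8 sums had no term for tissue that differs between sections, as neural-poor tissue does, so that difference entered its spread. Rsad2, Usp18 and Oasl1 had adjusted p = 0.999952 in neural and 0.990344 in neural-poor tissue in that fit. Fits of 1 tissue at a time (edgeR) called 94 genes higher and 25 lower in neural tissue, and 90 and 129 in neural-poor tissue. Those counts are fragile too.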

How the data were processed

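Spatial libraries of 2 sections (Visium CytAssist, formalin-fixed, 5-µm) were analysed. The authors deposited raw UMI counts per gene and spot, made with Space Ranger 2.1.1 on mm10 per the labels, with no normalization. Spots under tissue with at least 2000 UMIs were kept, and the interferon-high spots were chosen per section as described. The members, the gene lists and the tests were chosen with earlier results of these data known. Isg15 was not analysed here, so the choice rests on Ifit1 and Ifit3. UMIs were summed per section and spot group (interferon-high, surrounding, remaining), giving 6 libraries, because spots are not replicates. A spot can hold several cells. edgeR 4.0.16 (R 4.3.3; filterByExpr, TMM, robust quasi-likelihood test, section as a block, 2 residual degrees of freedom) compared interferon-high with surrounding spots, with Benjamini-Hochberg adjustment over 19234 genes and a threshold of 0.05. Ifit1 and Ifit3 were left out of the test. The section is the replicate number and both spot groups come from the same section, so the block pairs them by origin. The code was tested on simulated data. DESeq2 1.42.0 was an alternative. Ratios per section use CPM + 1, and intervals are exact Poisson (95%) for counts and Wilson for shares, both for counting error only. Neural-poor spots were set by an Otsu threshold on the summed neural markers and a majority vote of neighbors. Genes were named by rule: all signaling genes of the lists, the 6 highest changes per interferon, MHC and chemokine list above 10 CPM in members of both sections, the 10 highest and 10 lowest outside them, and the most abundant cell type markers. Others were named after their values were seen, among them Spata9, Ifi208, Trim30c, the Oas genes, Herc6, Isg20 and Eif2ak2.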

Additional observations from a re-analysis of the deposited data

Results flagged for a closer look

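Some genes, and the median gene of some lists, were higher than the surroundings in neural members of both sections. In neural-poor members of both sections they were lower than the surroundings. For the lists the difference was not tested, and the fit of 8 sums (edgeR) called no gene for it (smallest adjusted p = 0.999905) but also 0 genes within either tissue, so the missing calls say nothing about these genes. In log2 fold change, neural minus neural-poor, H2-Ab1 and H2-DMa of the MHC class II pathway differed by 0.78 and 0.60, the lysosomal protease Ctss by 0.48 and the hemoglobin Hbb-bs by 3.68. Some drops in neural-poor tissue were slight. The log2 ratios there were -0.10 and -0.03 for H2-Ab1 in sections 1 and 2, and -0.06 and -0.43 for Ctss. Hbb-bs had -0.09 in section 1, at 2.83 against 3.07 CPM, and -1.97 in section 2. Over both tissues, 5 members held 89.4% and 59.5% of the Hbb-bs UMIs of members. Single genes of the IL34 axis list were not part of this screen. Among them Csf1r, Sdc1, Arg1, Trem2, Tgfb1 and Hmox1 showed the same pattern, Arg1 by 1.13 and Hmox1 by 1.58.

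Among the interferon pathway lists, the sections' mean of list medians differed by 0.31 for receptors and JAK-STAT, 0.45 for IRF factors, 0.30 for feedback genes, 0.62 for MHC class II and 0.32 for chemokines. The IL34 axis differed by 0.51, proliferation by 0.56 and stress genes by 0.67. Among cell type lists the difference was 0.43 for microglia, 0.60 for macrophages, 0.90 for monocytes, 0.63 for neutrophils, 0.58 for plasmacytoid dendritic cells, 0.48 for T cells and 1.20 for choroid plexus. The antiviral list is not among these, since its median was above 0 in both tissues of both sections. List sums did not always follow the medians. In neural-poor members the receptor and JAK-STAT sum was 2235 against 2022 CPM in section 1 and 1803 against 1256 CPM in section 2. The IRF, feedback, MHC class II, chemokine and plasmacytoid dendritic cell sums were also higher there in both sections. Those of the IL34 axis, proliferation, macrophages, monocytes and choroid plexus were lower in both, and the rest differed by section.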

How the results depend on the processing

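The direction of the antiviral result held under every alternative run, whereas the number of calls did not. The antiviral median of 0.89 was 0.47 with spots thinned to 2000 UMIs before choosing, 0.64 against surrounding spots within 1 step, and 0.74 to 0.99 when a section was left out. The 42 higher and 7 lower calls became 40 and 2 with DESeq2, 6 and 0 with RLE factors, 78 higher from interferon-high and surrounding libraries only, 102 and 56 when chosen by Ifit1 alone, 1 and 0 by Ifit3 alone, 13 and 0 within 5 steps, 94 and 25 in neural and 90 and 129 in neural-poor tissue. No gene was called lower with the top 8%. No gene was called either way (0 and 0) with library size alone, without the replicate block (118 genes at an unadjusted p below 0.05), at 5000 UMIs, with the top 2%, after thinning, within 1 step or against surrounding spots of like UMI total and tissue. The estimated prior degrees of freedom moved with these counts, at 44.1 for the values reported and 2.61 to 5.66 in the alternatives without a call. They were infinite when chosen by Ifit1 alone, with the top 8% and in neural-poor tissue. Chosen after seeing the data, members with at least 3 rule UMIs and patches of 3 or more gave 0 and 0 calls, and edgeR without robust estimation 16 and 1. The 20 doubled genes became 12 with the top 8%, 4 after thinning, 8 within 1 step, 40 in neural tissue, 12 with at least 3 rule UMIs, 44 and 13 with pseudocounts of 0.1 and 5 CPM, and 32 from the mean of the spots' CPM. The neural-poor share was 50% and 6.32% in patches of 3 or more, and 24.4% in section 2 (27.6% of all spots) with a tissue threshold 1 log2 unit higher. With it 1 log2 unit lower, the share in section 2 was 8.97% (18.5% of all spots). In neural-poor tissue Hba-a2 and Hbb-bs turned to -1.19 and -1.41 through section 2 (section 1 gave log2 ratios of 0.17 and -0.09), and the cause was not tested. Choosing by Ifit1 and Ifit3 as a pair is the choice reported. With 2 sections and few rule UMIs per spot, small differences were not detectable.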
